A study of Danio rerio with 12 samples.

Results

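The comparison of unexposed zebrafish larvae with larvae raised in 50 µg/L triclosan comprised 55 genomic fragments, which are all entries of the authors' deposited table for that pair of groups, of 171 entries and 153 distinct fragments in the tables of the series. Both groups were AB strain fish kept singly in wells at 26.5 °C from the egg to 7 days post-fertilisation, either in control medium or in 50 µg/L of the antibacterial agent triclosan, with 50% of the solution replaced daily. Each library came from a pool of 24 whole larvae, and 4 of the 6 pools sampled were used per group. Whole larvae mix all cell types, so a change of methylation within cells and a change in the share of a cell type cannot be told apart. The table gives 1 methylation level per fragment and group, so values per library cannot be shown, and read depth is unknown.

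DNA methylation at CpG sites is copied after each cell division by maintenance methyltransferases and can be lost actively or by dilution. In vertebrates most CpG sites outside CpG islands carry it, whereas islands at gene starts mostly do not. Within gene bodies and at distant regulatory elements, methylation often differs between cell types and developmental stages. Reduced representation bisulfite sequencing reads short fragments cut out by MspI, and bisulfite converts unmethylated cytosine so that methylated and unmethylated copies can be counted.

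A fragment is named here by the gene the table assigns to it. The sequences of the fragments are not shown because no genome of build Zv9 was used here. Of the 55 fragments, 23 had a higher methylation level after 50 µg/L and 32 a lower one. The table holds no difference smaller than 15.04 points, and this contrast chose its entries, so neither the counts nor the sizes below are tested against chance. The number of fragments that the authors tested is not given in the sources used here, so the share listed cannot be computed. Standard errors (SE) and 95% intervals are those implied by the F statistics of the authors' deposited table, and cover the spread between pools under the assumption that F was computed on the printed levels.

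The levels spanned nearly the whole scale. In control the lowest of the 55 was 9.96% at neurod6a, the median was 64.4% and the highest was 92.2% at LINGO2. After 50 µg/L the lowest was 9.11% at CABZ01113061.1, the median was 59.0% and the highest was 95.9% at plxnb2b. The 23 fragments that rose went from a median of 53.8% to 70.3%, and the 32 that fell went from 69.8% to 50.7%.

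**Figure D1:**
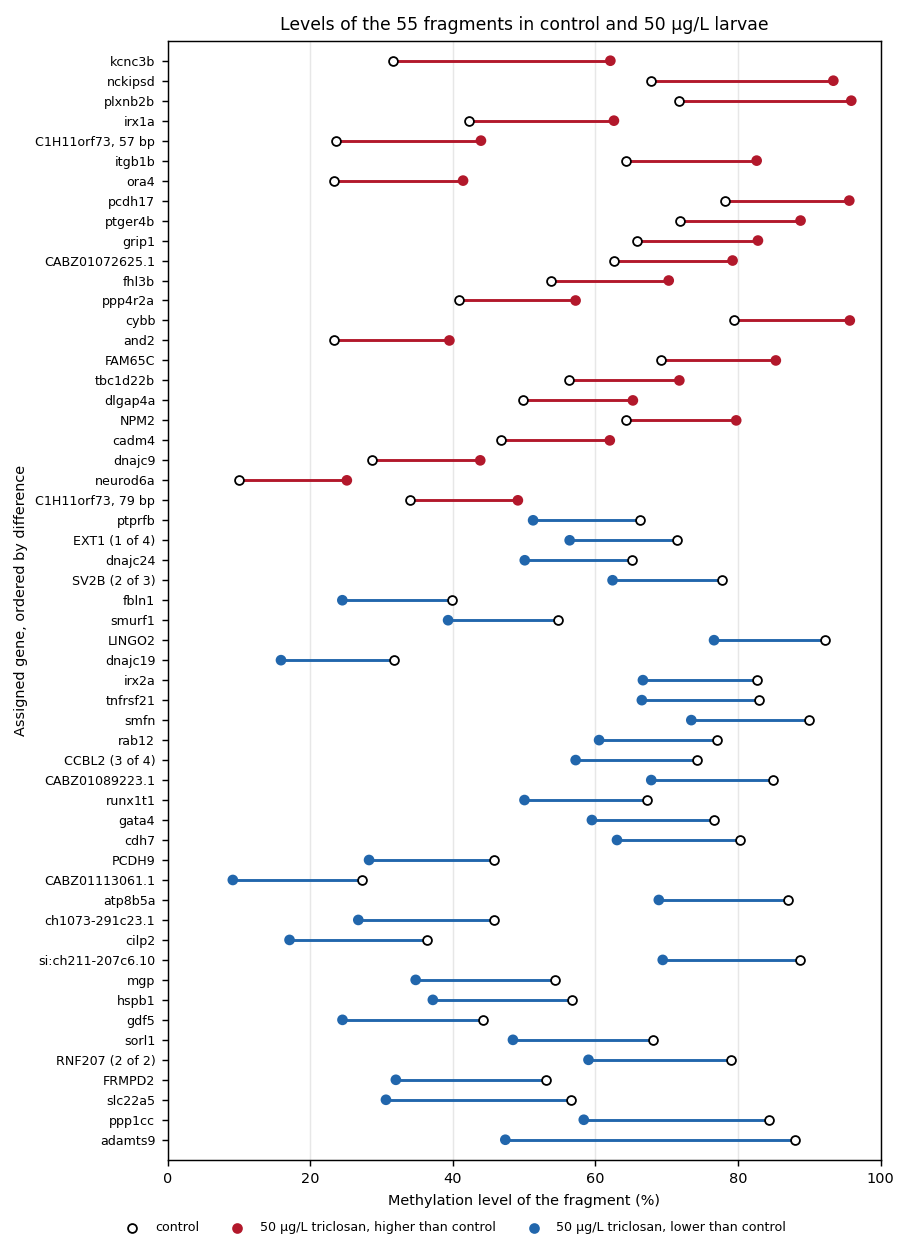
Methylation level in percent (horizontal axis) of each of the 55 fragments, ordered by difference, with open circles for control, filled circles for 50 µg/L and a line joining them. The 23 red fragments are higher and the 32 blue ones lower after 50 µg/L, from a gain of 30.6 points at kcnc3b to a loss of 40.6 at adamts9.

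Of 3 fragments of channel, transporter and flippase genes, grouped after their values were seen, 1 rose and 2 fell. Those of kcnc3b and slc22a5 were among the 5 differences of at least 25 points. That of atp8b5a, 18.2 points, was near the median size of the list, 17.03 points. The fragment in an intron of kcnc3b, the gene of a voltage-gated potassium channel of the Kv3 family (chromosome 24, 38601692 to 38601904), had 31.5% in control and 62.1% after 50 µg/L, a gain of 30.6 points (SE 4.58, 95% interval 18.8 to 42.3). It holds 20 CpG sites in 213 bp, the longest fragment of the list, and its methylated share rose 1.97-fold. On an exon of slc22a5, whose product imports carnitine (chromosome 21, 44306319 to 44306389), the level fell from 56.6% to 30.6% (SE 4.72), with the end of its interval nearer to 0 at -13.9 points. An intronic fragment of atp8b5a, which encodes a phospholipid flippase (chromosome 5, 21062421 to 21062507), went from 87.1% to 68.9% (SE 4.38). Its unmethylated share was 2.41 times as large after 50 µg/L as in control.

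Only 5 of the 55 fragments had a 95% interval lying wholly 10 points or more from 0. Beside kcnc3b and slc22a5 these were plxnb2b, nckipsd and adamts9, with interval ends nearer to 0 at 14.98, 12.98 and -13.4 points. In 31 of the 55 that end was at least 5 points from 0, and over all 55 its distance from 0 had a median of 5.46 points. The shortest distances were 1.56 points at cybb and 1.70 points at ptger4b. In the authors' deposited table the unadjusted p of the F statistic ran from 0.00106 at plxnb2b to 0.0367 at ptger4b. The intervals come from the same F, so that all 55 leave out 0 follows from the choice of entries. They are not corrected for that choice, and the distances from 0 are a description only.

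**Figure D2:**
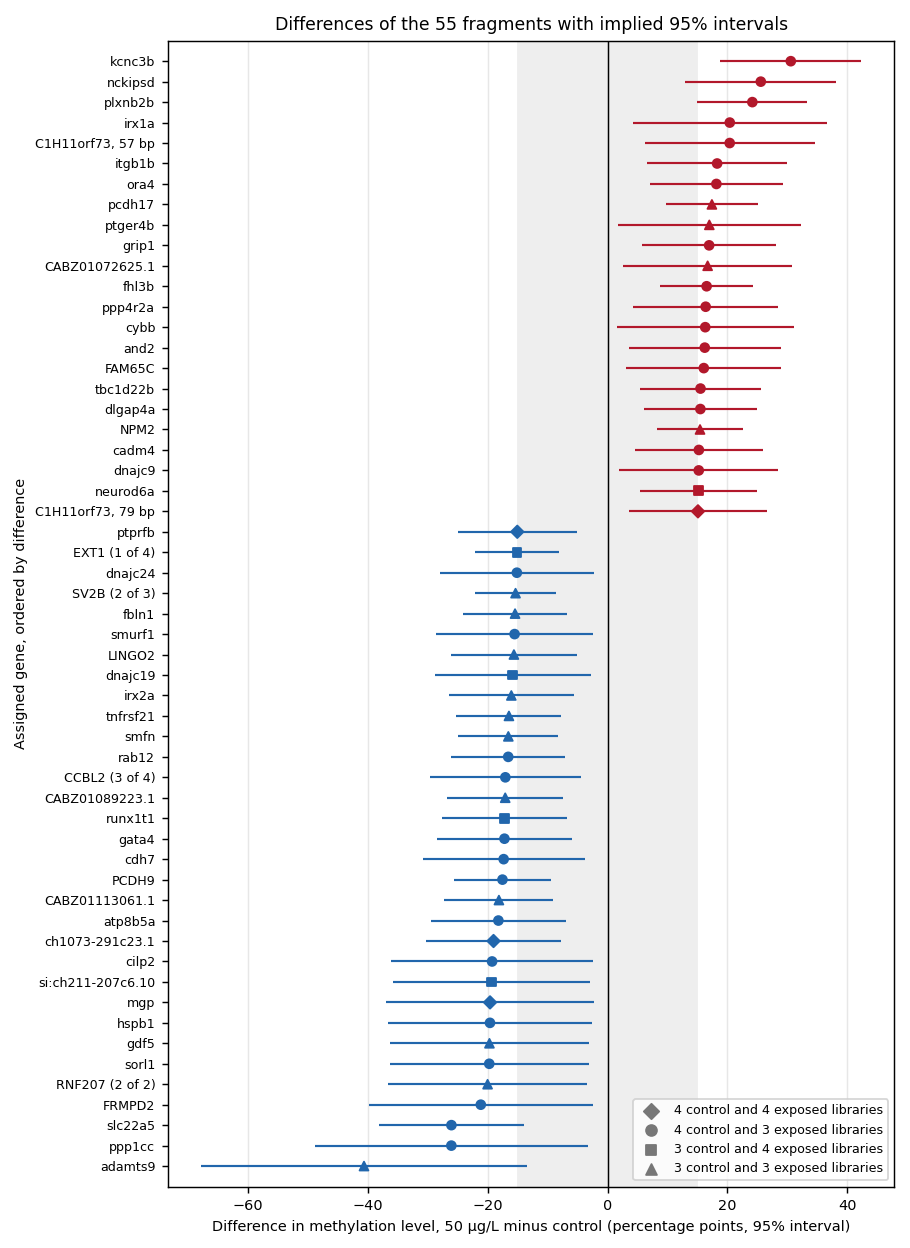
Difference in methylation level, 50 µg/L minus control, in percentage points (horizontal axis) for the 55 fragments, with lines for the implied 95% intervals, symbols for the number of libraries used, and grey for differences under 15 points, which the table does not hold. The intervals of kcnc3b, nckipsd, plxnb2b, slc22a5 and adamts9 lie wholly 10 points or more from 0.

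Of 6 fragments assigned to genes of the extracellular matrix and skeleton, grouped after their values were seen, 5 fell and 1 rose, against 32 and 23 of all 55. Intronic adamts9, whose product is a secreted metalloprotease that cuts matrix proteoglycans (chromosome 11, 19601299 to 19601372), lost 40.6 points, the largest difference of the list. Its unmethylated share went from 12.1% to 52.7%, a 4.37-fold increase, but its implied spread between pools, 11.99 points, was also the widest. The intronic fragment of cilp2, a gene for a cartilage intermediate layer protein (chromosome 22, 18694324 to 18694444), lost 19.2 points, from 36.3% to 17.1% (SE 6.55), and lies 1.23 kb from an end of its gene. At 33.4 kb from fbln1, which encodes the matrix glycoprotein fibulin 1 (chromosome 25, 1883983 to 1884094), the level fell from 39.9% to 24.5% (SE 3.10). The fragment 107 kb from EXT1 (1 of 4), a copy of a heparan sulfate polymerase gene, went from 71.5% to 56.4% (SE 2.75), and the one assigned to mgp, an inhibitor of calcification, fell from 54.4% to 34.8% (SE 7.09). The exception was and2, the gene of an actinodin of the larval fin fold, where a fragment 8.09 kb away rose from 23.3% to 39.5% (SE 4.94). Of these 6, only adamts9 and cilp2 lie inside their gene.

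To genes of cell adhesion, axon guidance and the synapse, grouped after their values were seen, 12 fragments were assigned, of which 6 rose and 6 fell. Only 4 of the 12 lie inside their gene. The share of such genes among the assayed fragments is not known, so the size of the group is not read as a result. The upward members were led by plxnb2b, a semaphorin receptor gene (chromosome 25, 5914800 to 5914865, 18.7 kb from the gene). The fragment gained 24.1 points (SE 3.56), and its unmethylated share shrank 6.89-fold, from 28.2% to 4.10%. Its implied spread between pools, 4.66 points, is larger than the share left, so the fold is loosely determined. At pcdh17, a protocadherin gene, the unmethylated share went from 21.8% to 4.38% (SE 2.75), 27.7 kb from the gene. The fragment 43.2 kb from itgb1b, which encodes an integrin beta 1 subunit (chromosome 2, 46145686 to 46145739), rose from 64.4% to 82.6% (SE 4.56). Inside introns, grip1, the gene of a scaffold for glutamate receptors (chromosome 4, 12117053 to 12117205), gained 16.9 points, from 65.9% to 82.8% (SE 4.33). So did cadm4, an adhesion gene of the immunoglobulin family (chromosome 16, 26605650 to 26605756), by 15.2 points, from 46.8% to 62.0% (SE 4.16). Both genes are large in the table, with spans of 219.9 and 305 kb, and the fragments lie 16.7 and 152 kb from the nearer end.

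The downward members of that group spanned losses of 15.04 to 21.1 points. Intronic cdh7, a classical cadherin gene (chromosome 2, 27161271 to 27161313), had 80.3% in control and 63.0% after 50 µg/L (SE 5.25) in the shortest fragment of the list, 43 bp. The fragment assigned to PCDH9, a protocadherin gene as is pcdh17, went the opposite way to it, from 45.7% to 28.2% (SE 3.14). That fragment holds 2 CpG sites and lies 257 kb from PCDH9. At 16.3 kb from ptprfb, a receptor tyrosine phosphatase gene with roles in axon growth (chromosome 2, 17616095 to 17616181), the level fell from 66.3% to 51.3% (SE 4.06). This is the smallest difference of the table, 15.04 points. LINGO2, a gene for a neuronal membrane protein with leucine-rich repeats, was the most methylated fragment in control, 146 kb away, and fell to 76.6% (SE 3.78). The fragment assigned to SV2B (2 of 3), a synaptic vesicle gene copy, lies 481 kb away and had the smallest SE of the list, 2.46 points, with a fall from 77.7% to 62.4%. Intronic FRMPD2, whose protein carries FERM and PDZ domains, went from 53.1% to 32.0% (SE 7.26) at 0.849 kb from an end of its gene.

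Among 6 fragments of transcription regulator genes, 3 rose and 3 fell. The intergenic fragments assigned to irx2a and irx1a, homeobox genes of the Iroquois family that pattern the neural tube and heart, lie on chromosome 16 at 684482 to 684541 and 764503 to 764551. They are 79.96 kb apart, in the stretch between both genes, and differed from control in opposite directions. The one assigned to irx2a fell from 82.7% to 66.7% (SE 3.75), and the one assigned to irx1a rose from 42.2% to 62.6% (SE 6.29). The intronic fragment of fhl3b, a LIM domain gene (chromosome 19, 4885868 to 4885921), lies 0.761 kb from an end of its gene and rose from 53.8% to 70.3% (SE 3.00). On exons, gata4, a zinc finger factor of heart and gut development (chromosome 20, 53591264 to 53591319), fell from 76.7% to 59.5% (SE 4.36), while neurod6a, a neuronal basic helix-loop-helix factor, rose 2.52-fold from 9.96% to 25.1% (SE 3.77). The fragment 3.22 kb from runx1t1, which encodes a co-repressor rather than a DNA-binding factor (chromosome 19, 35062867 to 35063011), fell from 67.2% to 50.0% (SE 4.06).

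In receptor and growth factor signalling 2 of 5 fragments rose and 3 fell. Intronic gdf5, a BMP family ligand of joint formation (chromosome 6, 52595827 to 52595885), went from 44.2% to 24.5% (SE 5.96), and intronic smurf1, a ubiquitin ligase that targets SMAD proteins of that pathway (chromosome 3, 40726896 to 40726964), from 54.8% to 39.3% (SE 5.10). The intronic fragment of tnfrsf21, a death receptor gene, fell from 82.9% to 66.5% (SE 3.15) at 1.41 kb from an end of the gene. In contrast, the fragment 6.63 kb from ptger4b, a prostaglandin E2 receptor gene (chromosome 5, 37009946 to 37010016), gained 16.97 points, from 71.8% to 88.8% (SE 5.50), and ora4, a chemoreceptor gene, had a 1.78-fold higher level in a CpG island.

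Fragments of trafficking, cytoskeleton and phosphatase genes were evenly divided, with 3 up and 3 down. Intronic nckipsd, whose protein binds the actin regulator NCK (chromosome 22, 212563 to 212654), rose to 93.4% (SE 4.89), and its unmethylated share shrank 4.86-fold, from 32.2% to 6.62%. The implied spread between pools at nckipsd, 6.40 points, is close to the share left, so that fold is loosely determined. Intronic rab12, a small GTPase gene of membrane trafficking (chromosome 2, 55009053 to 55009136), fell from 77.1% to 60.5% (SE 3.70). The fragment 23.6 kb from tbc1d22b, a gene of the family that inactivates such GTPases (chromosome 8, 10903131 to 10903187), rose from 56.3% to 71.8% (SE 3.90). Of 2 phosphatase subunit genes, ppp1cc fell by 26.0 points with a wide interval of -48.8 to -3.25, and ppp4r2a, a regulatory subunit gene 209 kb from its fragment, rose from 40.9% to 57.2% (SE 4.72). The sorting receptor gene sorl1 held an intronic fragment that fell from 68.1% to 48.4% (SE 6.45).

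All 5 fragments of chaperone genes lie outside the gene. Of the 4 for heat shock proteins and their DNAJ partners, 3 fell and dnajc9 rose. At dnajc24, a co-chaperone gene 73.3 kb away, the level went from 65.2% to 50.1% (SE 5.01), and at dnajc19, a mitochondrial import co-chaperone gene 249 kb away, the level fell from 31.7% to 15.9% (SE 5.05). The fragment 115 kb from hspb1, a small heat shock protein gene, had 56.8% in control and 37.2% after 50 µg/L (SE 6.62). The histone chaperone gene NPM2, 74.5 kb from its fragment (chromosome 10, 45833995 to 45834059), rose from 64.3% to 79.8% with a small SE of 2.56. Of 4 fragments for other enzymes, cybb, the catalytic subunit gene of the phagocyte NADPH oxidase, rose from 79.4% to 95.7% (SE 5.73) in an intron. Those for RNF207 (2 of 2), a RING finger gene, CCBL2 (3 of 4), a kynurenine aminotransferase gene copy, and smfn, a small fragment nuclease gene, fell. The latter lost 16.5 points, from 89.98% to 73.5% (SE 3.00) at 29.9 kb from the gene (chromosome 10, 41227340 to 41227402), and CCBL2 (3 of 4) from 74.3% to 57.2% (SE 4.91) at 71.3 kb.

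For 8 fragments no role is given for the assigned gene, and 4 rose and 4 fell. In CABZ01113061.1 an intronic fragment (chromosome 25, 38487689 to 38487823) lies 0.275 kb from an end of the gene, the closest of all. Its level fell 2.99-fold, from 27.2% to 9.11% (SE 3.27), the largest fold loss of the list. The exonic fragment of ch1073-291c23.1 (chromosome 13, 246619 to 246695), 1 of the 4 fragments with 4 libraries in each group, fell from 45.7% to 26.7% (SE 4.60). Intronic CABZ01089223.1 fell from 84.9% to 67.8% (SE 3.50), while intronic CABZ01072625.1 rose from 62.6% to 79.2% (SE 5.06) and FAM65C from 69.3% to 85.3% (SE 5.03). Both exonic fragments of C1H11orf73, which are 36 bp apart on chromosome 1, rose, the shorter from 23.6% to 43.9% (SE 5.52) and the longer from 34.0% to 49.1% (SE 4.73).

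The prefix lists of gene families gave a similarly mixed picture, but they regroup the same 55 fragments. They were also chosen with earlier results of these data known, so their counts give no separate support. Members were found for 11 of 15 lists. On the matrix list 2 of 2 fragments fell, on the transporter list 2 of 2, and on the growth factor and cytokine list 2 of 2. The prefixes of the matrix list miss and2, which rose, and cilp2, fbln1 and EXT1 (1 of 4), which fell. The axon guidance and synapse list had 2 of 2 higher, and the ion channel, chemoreceptor, prostaglandin and oxidase lists 1 of 1 each. Missed by the axon guidance and synapse prefixes are grip1, which rose, and ptprfb, LINGO2, SV2B (2 of 3) and FRMPD2, which fell. Adhesion genes were split 2 and 2, with a median difference of 0.0450 points, and 3 of 4 chaperone genes fell. The adhesion prefixes miss cadm4 and the chaperone prefixes NPM2, both of which rose. Of 5 on the transcription factor list, which catches runx1t1 by its name, 2 rose and 3 fell. That list does not hold the transcription regulator gene fhl3b, which rose. The medians of all 55, -15.4 points, and of these lists are set by whether falls or rises are more numerous, since no listed value lies between -15 and 15. The lists for DNA methylation enzymes and readers, xenobiotic metabolism, thyroid and steroid genes had 0 listed fragments, and it is not known how many of their genes were assayed.

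The direction varied with the level in control. Of 16 fragments above 75% in control, 14 fell and 2 rose, the latter being pcdh17 and cybb. Between 50% and 75%, 11 fell and 10 rose, and between 25% and 50%, 7 fell and 7 rose. All 4 fragments at or under 25%, which were neurod6a, ora4, and2 and the shorter of C1H11orf73, rose. A rise of 15 points is not possible above 85% and a fall not below 15%, which fixes the direction of 5 and 1 fragments. Without those 6, 22 of 49 rose, though levels just inside these limits also leave little room for a listed change in 1 direction. After 50 µg/L 4 fragments exceeded 90%, namely plxnb2b, cybb, pcdh17 and nckipsd, against LINGO2 alone in control. The levels in control enter both quantities, so their correlation over the 55 fragments (Pearson r = -0.390, Spearman rho = -0.284) is given as a description only.

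**Figure D3:**
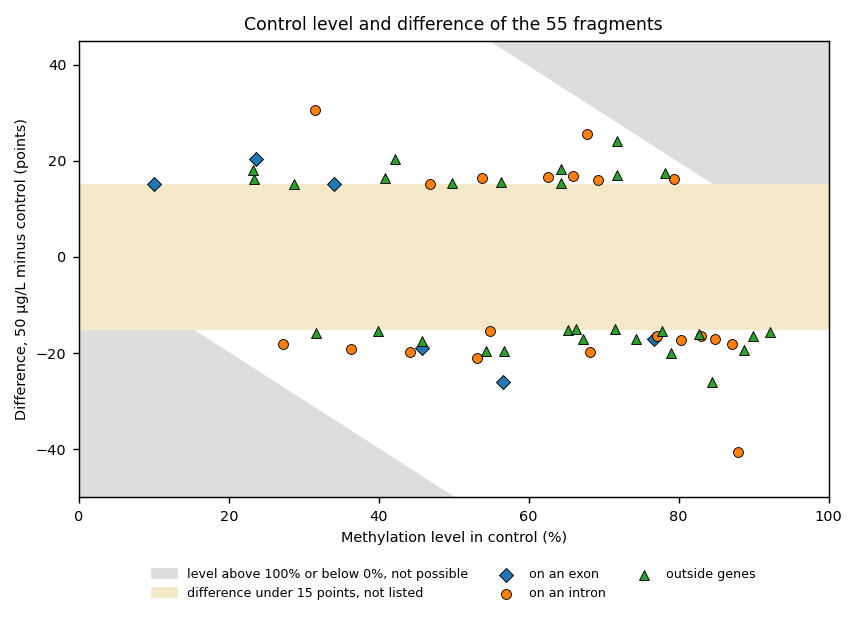
Methylation level in control in percent (horizontal axis) against the difference, 50 µg/L minus control, in points (vertical axis), with symbols for the location of each of the 55 fragments. Grey marks impossible levels and yellow differences under 15 points, which the table does not hold. Of 16 fragments above 75% in control, 14 lie below 0.

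The direction also moved with the number of libraries used. For 35 fragments with 4 control libraries 18 rose and 17 fell, whereas for 20 fragments with 3 control libraries 5 rose and 15 fell. The latter also had a higher median level in control, 74.8% against 56.3%, so this pattern overlaps with that of the control level. Only 9 of the 55 used all 4 exposed libraries, of which 2 rose and 7 fell, against 21 and 25 of the 46 with 3 exposed libraries. Of those 9, 5 had 3 control libraries, with 1 up and 4 down, so this split overlaps with that by control libraries. The table does not say which library was left out. In 4 fragments, assigned to ptprfb, mgp, ch1073-291c23.1 and C1H11orf73 (the longer one), 4 libraries of each group were used. Of these 1 rose and 3 fell. The part of library choice in the direction was not tested.

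The fragments were short, as the method selects, and of moderate CpG content. Their length ran from 43 to 213 bp with a median of 84 bp, and they held 2 to 20 CpG sites with a median of 5. The CpG density had a median of 5.26 per 100 bp, with 6.06 among those that rose and 4.73 among those that fell. The ranges overlapped, 2.80 to 9.78 among rises and 2.53 to 14.3 among falls, and the densest fragments fell. At 4 fragments, assigned to PCDH9, tbc1d22b, smfn and tnfrsf21, the level rests on 2 CpG sites. Those with 10 or more sites were kcnc3b, si:ch211-207c6.10, hspb1, neurod6a and ch1073-291c23.1. Of the 55, 20 were longer than the 100 bp that were read from 1 end. Within the list, the number of sites showed no clear relation to the size of the difference (Spearman rho = 0.0418 over 55 fragments). Sizes under 15.04 points are absent, so this does not describe the assayed fragments.

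By position, 29 fragments lay outside genes, 20 in introns and 6 in exons. Exonic fragments had a median control level of 39.9%, against 66.8% on introns and 65.2% outside genes. The 6 exonic levels ran from 9.96% to 76.7% and include both neighbouring fragments of C1H11orf73. Of the 26 inside a gene, 10 lay within 2 kb of an end of it, with 5 up and 5 down. Of the 29 outside, 2 were within 5 kb (ora4 and runx1t1), 24 were over 10 kb away and 8 over 100 kb. Of those 8, 7 fell and only ppp4r2a rose. Those assigned to EXT1 (1 of 4), SV2B (2 of 3), LINGO2, dnajc19 and irx2a used 3 control libraries. Of all 20 fragments with 3 control libraries, 15 fell, and distance was not tested apart from this. Which gene end holds the transcription start cannot be read from the table: its 5′ mark stood for the lower coordinate and its 3′ mark for the higher one in all 55 fragments, so the strand of the gene was not used.

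Inside CpG islands lay 3 fragments, all outside genes. The island fragment of ora4 (chromosome 22, 375627 to 375724) and that of dnajc9 (chromosome 12, 10237752 to 10237835) rose, the latter from 28.6% to 43.8% (SE 5.17). The island fragment assigned to ppp1cc (chromosome 5, 684566 to 684614) was, with the exonic one of gata4, the densest of the list at 14.3 CpG sites per 100 bp, and had 84.4% in control and 58.4% after 50 µg/L. The level at ora4 went from 23.3% to 41.4% (SE 4.31).

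A level at 100 µg/L is given for 16 of the 55 fragments, because they also appear in another deposited table. Those tables share the control or the 50 µg/L pools with this one, so the values are set side by side and not read as an independent response. Of these, 15 are in the table for 50 against 100 µg/L, where the smallest gap between both doses among them was 15 points, at fhl3b. Listing in both tables picks fragments whose 50 µg/L level lies apart from control and from 100 µg/L. This favours a highest or lowest level at 50 µg/L, and for the other 39 fragments no level at 100 µg/L is given. At plxnb2b the levels were 71.8% in control, 95.9% at 50 and 69.9% at 100 µg/L. At nckipsd they were 67.8%, 93.4% and 75.7%, and at ptger4b 71.8%, 88.8% and 65.0%. These 3 and fhl3b, with 53.8%, 70.3% and 55.3%, had their highest level at 50 µg/L, as did cybb, with 79.4%, 95.7% and 78.5%, neurod6a, with 9.96%, 25.1% and 9.86%, and the longer fragment of C1H11orf73, with 34.0%, 49.1% and 33.0%.

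Others had their lowest level there. The flippase gene atp8b5a had 87.1%, 68.9% and 92.3%, with an interval of 17.9 to 28.9 points for the rise from 50 to 100 µg/L, and CCBL2 (3 of 4) had 74.3%, 57.2% and 82.3%. RNF207 (2 of 2) had 79.0%, 59.0% and 80.8%, and dnajc19 had 31.7%, 15.9% and 31.4%. At slc22a5 the levels were 56.6%, 30.6% and 48.9%, at hspb1 56.8%, 37.2% and 52.6%, and at adamts9 87.9%, 47.4% and 80.6%. The 206 bp fragment assigned to si:ch211-207c6.10 (chromosome 5, 43941609 to 43941814) had 88.8%, 69.4% and 88.9%. The fragment directly next to it (43941815 to 43941871) is listed for both doses only, with 77.7% at 50 and 93.04% at 100 µg/L. At dlgap4a, a postsynaptic scaffold gene 14.98 kb from its fragment, the levels were 49.8%, 65.3% and 65.9%, the last from the table for control against 100 µg/L.

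**Figure D4:**
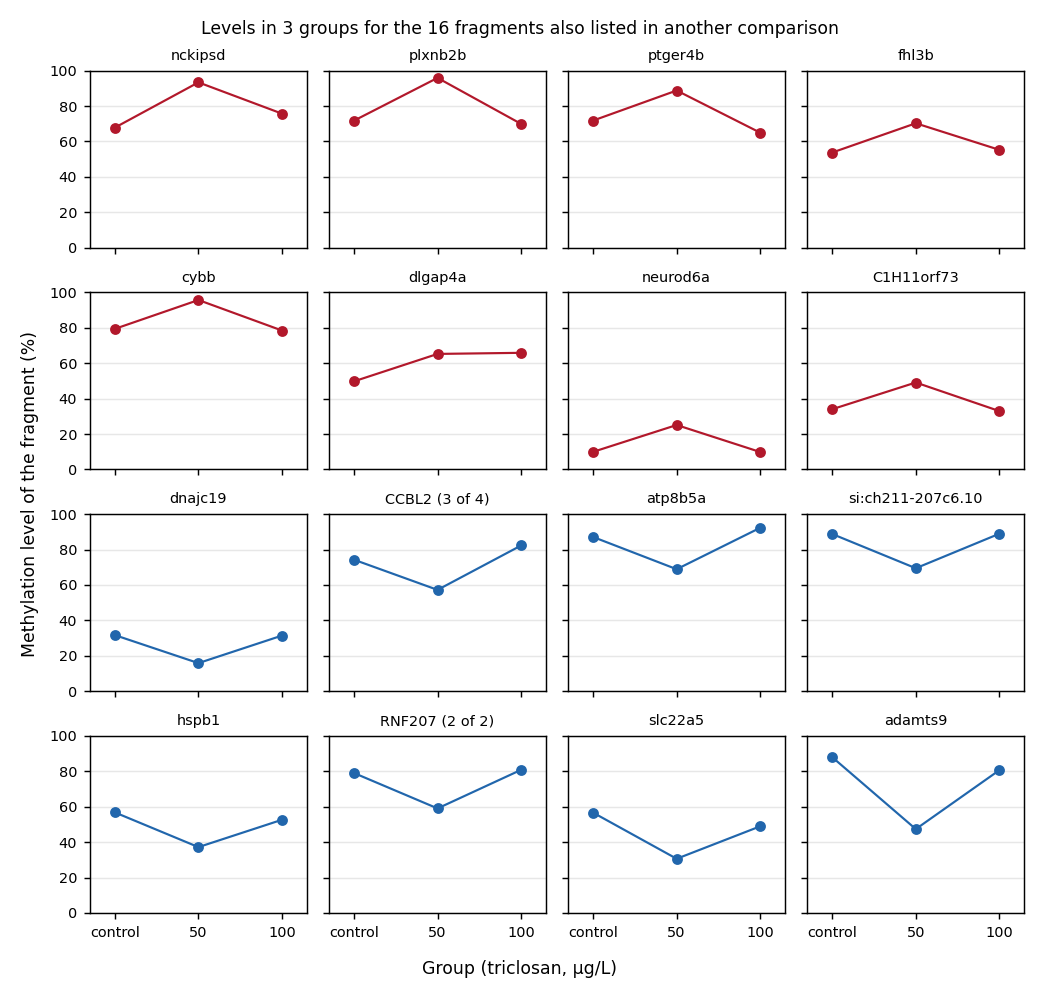
Methylation level in percent (vertical axis) in control, 50 and 100 µg/L (horizontal axis, groups joined by lines for reading only) for the 16 fragments listed in a further comparison, red where 50 µg/L is above control and blue where it is below. In 15 panels 50 µg/L is the highest or the lowest point, and at dlgap4a both doses lie above control.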

How the data were processed

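Methylation was measured by reduced representation bisulfite sequencing with 100 bp single-end reads of fragments of 40 to 220 bp, per the labels' protocols. The authors deposited 1 table per pair of groups, with, per the file headers, 1 methylation fraction for either group, F, an unadjusted p-value and the number of libraries used. Build Zv9 is from the submitters' processing notes. Not stated in the labels or headers are the aligner, the coverage minimum, the rule for listing and whether levels are means over libraries or pooled reads. Depth is unknown, so no counting interval was made.

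Columns were read by position, and R was taken as control and S as 50 µg/L. The levels at 50 µg/L were identical in both tables for all 15 fragments they share. Fractions were turned into percent. In all 55 entries the listed gap equalled the difference of levels within 0.01 points and the degrees of freedom equalled the libraries minus 2. The SE is the difference divided by the square root of F, and intervals use the t distribution at 95%. The calculation was tested on simulated fragments with a known difference, all of which were kept. It therefore does not show how the intervals behave for fragments chosen by size or p, as the 55 were. Distances to gene ends were computed from the gene spans in the table. Names are those of the table, of which 42 of 54 occur in symbol tables of a later assembly.

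The labels do not say that pools came from separate clutches. Every fragment could be named, with full values for those that are large, exonic, near a gene, in an island, fully covered by libraries, neighbours or on a list. The fragments, the prefix lists and the functional groups were chosen with earlier results of these data known. No further test was made, because the table holds no values per library. Python 3.11.15, pandas 2.3.3 and scipy 1.17.1 were used.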

Additional observations from a re-analysis of the deposited data

How the results depend on the processing

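The share of fragments that rose, the share inside genes, the median size and the median SE were recomputed under 6 other settings, which gave 21 values. Of these, 18 moved by less than the 95% exact binomial interval of the share or the SD of the sizes or errors over fragments. With differences of at least 20 points only, 66.7% of 9 fragments lay inside genes in place of 47.3%, and the median size was 25.6 in place of 17.03 points, as the setting itself raises it. With 4 libraries in each group, 25% of 4 fragments rose in place of 41.8%. A p limit of 0.01, at least 3 CpG sites, 1 fragment per gene and an SE from p moved no value past that limit. The p and F carry the same information, so the SE from p could differ only by rounding. The binomial interval treats the fragments as independent, although they come from the same pools and include neighbours. The limit is wide, and all settings reuse the same 55 entries, so staying within it does not show that a value is stable. With a p limit of 0.01 the median SE was 3.50 in place of 4.60 points, as a low p itself favours a small SE. With differences of at least 20 points, 55.6% of 9 fragments rose in place of 41.8%. Both stayed within the limit. Leaving out each replicate was not run, since the table has no values per library. No paired analysis was possible because the levels are given per group, although titles share replicate numbers. Depth and the number of fragments tested limit all statements.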

Other observations

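Fragments close to the lower end of a chromosome's coordinates were seen among the 55 after their values were known. Of these, 8 (14.5%) start within the first 1 Mb, on chromosomes 1, 5, 13, 16 and 22, and 5 of them rose. They are both fragments of C1H11orf73, ppp1cc, ch1073-291c23.1, irx2a, irx1a, nckipsd and ora4. Such a start was found for 1 of 17 entries (5.88%) where 100 µg/L was set against control, and for 6 of 99 (6.06%) where it was set against 50 µg/L. The upper ends of chromosomes were not counted. The 8 include neighbours, with the fragments of C1H11orf73 36 bp apart and those of irx2a and irx1a 79.96 kb apart. The fragment of nckipsd and the longer one of C1H11orf73 are also entries of the comparison of both doses. The tables share pools, the difference between them was not tested, and the share of assayed fragments in such positions is not known. On chromosome 22, nckipsd and ora4 are 163 kb apart and both rose, and on chromosome 11, RNF207 (2 of 2) fell and cybb rose at a distance of 217 kb.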
